A study of Homo sapiens with 12 samples.

Results

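Genes best known from T cells and natural killer (NK) cells, 10 in all, were followed in a myeloma cell line: TRBC1, CD3E, CD7, IL23R, IL12RB1, GZMA, GZMB, PRF1, GNLY and NKG7. A member was every row of the deposited array table whose platform gene symbol was one of these 10 genes, which gave 18 probe sets of 54675 rows, or of 54613 without the array's own control probe sets. The genes were chosen by their array signals in these samples, on their changes after knockdown of BCL9, so their values in that comparison are given as a description and carry no test. Expression was measured in H929, an established human multiple myeloma line, on 12 arrays in 4 groups of 3, and no genotype beyond the line itself is given in the labels. In the infected arm, cells were infected with hairpins, either the control shGFP, which targets a jellyfish protein, or shBCL9, which targets BCL9 mRNA, and GFP-positive cells were then sorted. In the transfected arm, the control was cel-miR-67, a microRNA of nematodes, and treated cells were given human miR-30a, b, c, d and e, which the labels write together without saying whether they were pooled (miR-30). The labels name 1 shRNA per target and no untreated cells, and do not tell whether replicates were cultured separately. The spread between replicates, and with it each p-value, may thus be technical.

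T cells recognise antigen with a receptor made of variable chains, whose beta chain carries a constant region encoded by TRBC1 or the near-identical TRBC2, and with the CD3 proteins, which pass the signal on. Interleukin 12 and interleukin 23 act on T and NK cells through receptors that share the IL12RB1 subunit, IL12RB2 and IL23R being the partners specific to each cytokine. Killer lymphocytes store perforin, granzymes and granulysin in granules and release them onto a target cell. Plasma cells, from which myeloma arises, secrete antibody and are not known for this cytotoxic programme, and BCL9 is a coactivator of beta-catenin in Wnt signalling. miR-30 is a family of microRNAs that share a seed, the stretch by which a microRNA pairs with its targets.

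The sequences of the transfected miRNAs show what the miR-30 group shares. The RefSeq table used here held the mature 5p strands of miR-30a, c and e, while miR-30b and miR-30d are named only. Capitals mark the seed, bases 2 to 8 from the 5′ end, and the 3 strands have the same seed and differ towards the 3′ end.
hsa-miR-30a-5p: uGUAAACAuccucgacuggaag
hsa-miR-30c-5p: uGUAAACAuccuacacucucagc
hsa-miR-30e-5p: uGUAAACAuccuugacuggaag

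Promoters are shown for 3 cytotoxic granule genes among the members, GZMB, PRF1 and GNLY. Each was lower in shBCL9 than in shGFP, without overlap of the arrays, on at least 1 probe set. RefSeq promoters (build GRCh38.p14, 250 bases before to 50 after the start of the gene) were in the table for 6 of the 10 members, the others being IL12RB1, GZMA and NKG7. Capitals mark matches, on either strand, to 4 motifs searched as exact letters. These were the AP-1 motif TGANTCA, the cyclic AMP response element TGACGTCA, the RUNX core TGTGGT and the T-box motif AGGTGTGA, and no match of one overlapped another.
GZMB, chr14:24634141-24634440, minus strand: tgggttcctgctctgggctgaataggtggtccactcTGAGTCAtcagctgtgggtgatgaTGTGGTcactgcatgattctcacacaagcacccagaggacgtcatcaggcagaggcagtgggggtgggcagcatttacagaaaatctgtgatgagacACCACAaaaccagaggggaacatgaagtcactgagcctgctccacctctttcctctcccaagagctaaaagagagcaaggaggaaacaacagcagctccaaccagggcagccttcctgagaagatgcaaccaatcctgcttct
PRF1, chr10:70602692-70602991, minus strand: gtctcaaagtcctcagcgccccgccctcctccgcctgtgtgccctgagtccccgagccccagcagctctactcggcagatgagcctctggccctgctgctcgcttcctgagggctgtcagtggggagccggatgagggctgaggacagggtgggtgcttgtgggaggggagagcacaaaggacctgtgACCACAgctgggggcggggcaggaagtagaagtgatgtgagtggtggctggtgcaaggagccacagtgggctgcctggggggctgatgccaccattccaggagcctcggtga
GNLY, chr2:85694108-85694407, plus strand: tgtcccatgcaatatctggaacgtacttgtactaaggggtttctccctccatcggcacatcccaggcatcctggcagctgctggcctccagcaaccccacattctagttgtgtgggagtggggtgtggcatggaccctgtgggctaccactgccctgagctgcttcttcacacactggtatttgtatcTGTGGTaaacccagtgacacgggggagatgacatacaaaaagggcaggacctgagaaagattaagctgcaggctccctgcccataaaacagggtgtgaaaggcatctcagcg
The GZMB window held 1 AP-1 match, which began 214 bases before the start, and 2 RUNX matches, which began 190 and 93 bases before it. PRF1 and GNLY each held 1 RUNX match, both 62 bases before the start, on opposite strands relative to the gene. GZMA also held 1 RUNX match, 54 bases before its start, and IL12RB1 and NKG7 held none of the 4 motifs. Of 35116 promoters of this length, 13.1% held the RUNX core, 7.71% the AP-1 motif, 1.85% the cyclic AMP response element and 0.98% the T-box motif. These matches describe the letters of the windows and are not binding sites.

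The RNA quality of the groups was read from probe sets at opposite ends of a transcript, where a larger excess of the 3′ end accompanies shorter labelled RNA. The 3′ minus 5′ difference of ACTB was 1.30 ± 0.11 on the log2 scale in shGFP and 1.67 ± 0.08 in shBCL9, against 2.16 ± 0.09 in cel-miR-67 and 2.07 ± 0.01 in miR-30 (SD, n = 3 each). The log2 signal of 18S ribosomal RNA was 12.38 ± 0.07 in shGFP, 13.23 ± 0.02 in shBCL9, 12.50 ± 0.05 in cel-miR-67 and 12.64 ± 0.04 in miR-30. The ACTB and 18S measures differed between shBCL9 and shGFP. The 3′ minus 5′ difference of GAPDH overlapped there, at 0.13 ± 0.02 in shBCL9 and 0.14 ± 0.02 in shGFP. It was 0.18 ± 0.04 in cel-miR-67 and 0.20 ± 0.04 in miR-30. The part of these measures in the results below was not tested. BCL9 itself, the target of the hairpin, had a log2 signal of 7.88 ± 0.01 in shGFP and 7.73 ± 0.12 in shBCL9, and of 7.82 ± 0.04 in cel-miR-67 and 7.96 ± 0.11 in miR-30. The 3 shBCL9 arrays lay below the 3 shGFP arrays, and an exact permutation test of 3 against 3 cannot give a p below 0.1.

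All levels are log2 signals after RMA, which summarizes the probes of a probe set. A signal is not zero for a silent gene, so levels were read against the 40th percentile of each array (4.86 to 4.95), called the background level here. Genes of other organs, such as pancreas, heart and pituitary, gave a second reference, with medians over their 46 probe sets of 4.35 to 4.57 and 95th percentiles of 6.33 to 6.75 over the arrays. Of the 18 member probe sets, 12 were above the background level in all 12 arrays (54.0% of all probe sets were), 4 in some arrays and 2 in none. With the 60th percentile as the limit the number fell to 4, and with the 95th percentile of the genes of other organs to 3. Those 3 were the 2 brighter TRBC1 probe sets and 1 probe set of IL12RB1. Levels of different probe sets depend on their probes and are not ranked against each other.

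**Figure D1:**
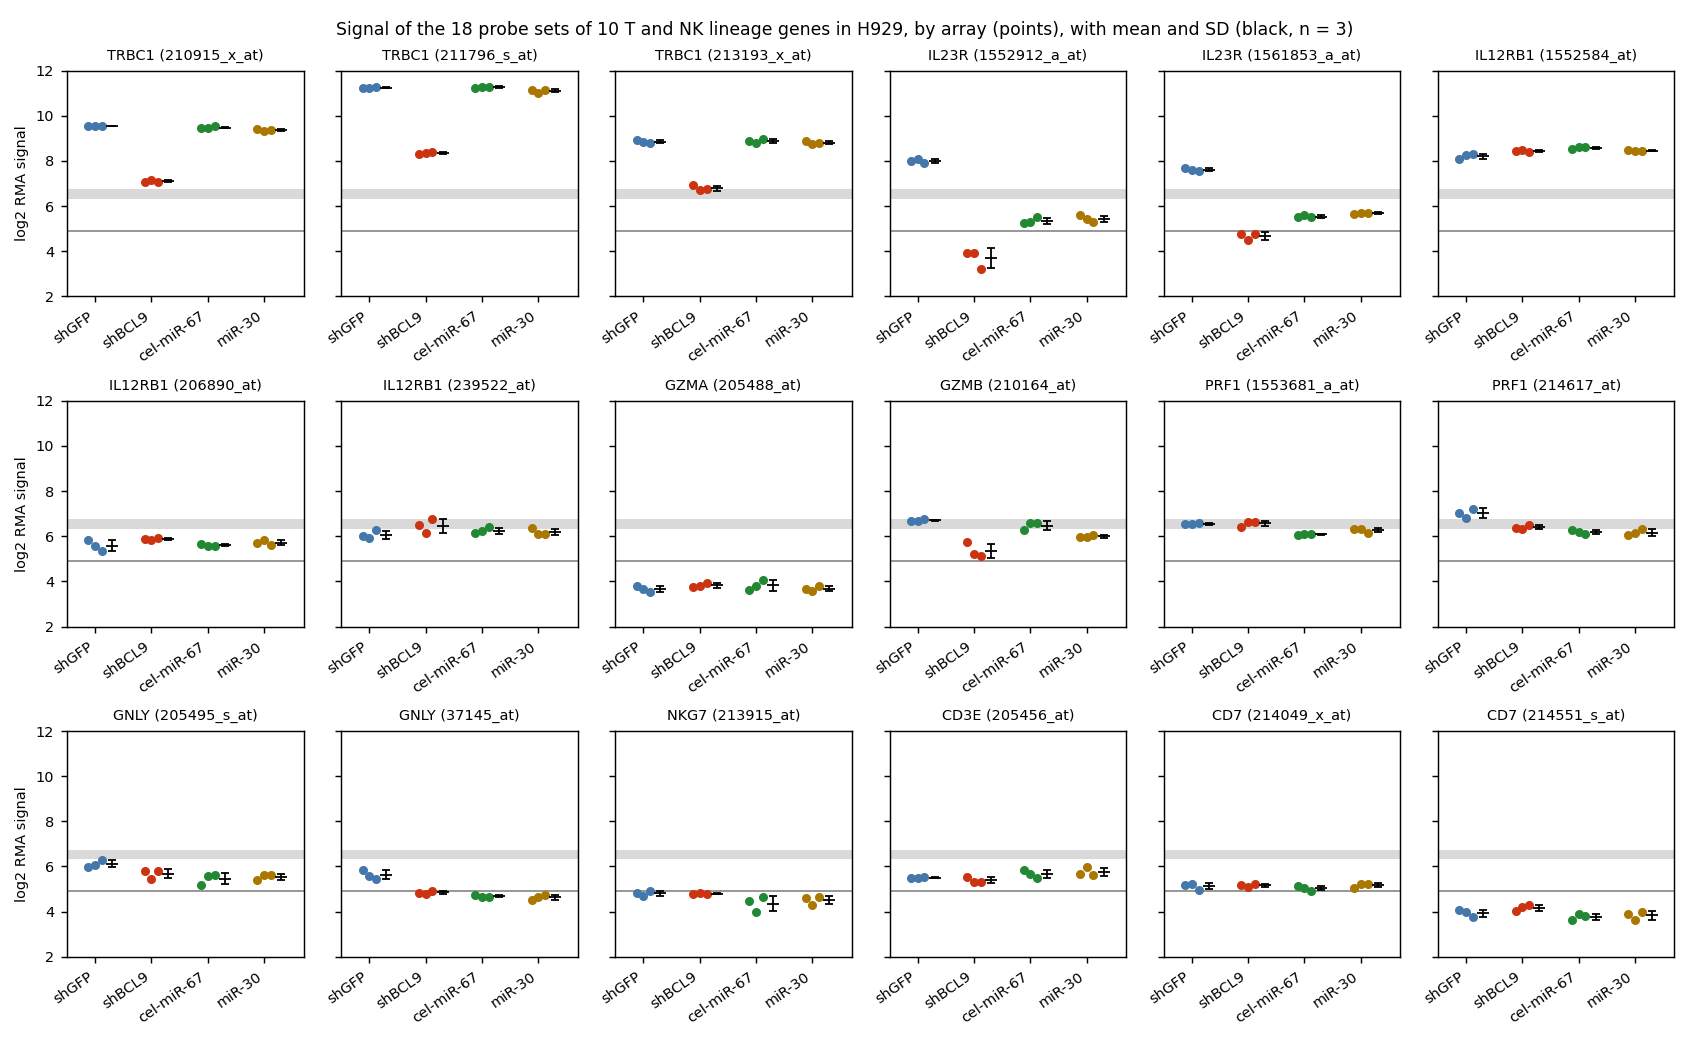
The log2 RMA signal of each of the 18 member probe sets (vertical axis) in the 3 arrays of each group (coloured points), with the mean and SD of the group in black; the thin dark band is the 40th percentile of the arrays (4.86 to 4.95) and the pale band the 95th percentile of the genes of other organs (6.33 to 6.75). TRBC1 lies above the dark band in every array and is lowest in shBCL9, both IL23R probe sets are high in shGFP alone, and GZMA and 1 CD7 probe set stay under the dark band in all 12 arrays.

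TRBC1, the constant region of the T cell receptor beta chain, was above the background level on its 3 probe sets in every array, and all 3 were lower in shBCL9. The probe set 211796_s_at read 11.24, 11.22 and 11.28 in the 3 shGFP arrays and 8.30, 8.37 and 8.40 in the 3 shBCL9 arrays. It read 11.23, 11.29 and 11.29 with cel-miR-67 and 11.16, 11.02 and 11.15 with miR-30. The 3 shBCL9 arrays were thus the low ones, while both control groups overlapped. The fitted difference between shBCL9 and shGFP was -2.89 (SE 0.06, 95% interval -3.03 to -2.76), a signal 7.42 times lower. In rank, the probe set stood at the 97.2 to 97.3 percentile of the shGFP arrays and at the 83.2 to 84.2 percentile of the shBCL9 arrays, so it was still far above the background level there. Bulk RNA of a culture cannot tell fewer cells that carry a transcript from less of it in each cell.

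The other TRBC1 probe sets gave the same picture at lower signal. 210915_x_at had means of 9.54 in shGFP, 7.11 in shBCL9, 9.48 in cel-miR-67 and 9.37 in miR-30, with a difference of -2.43 (SE 0.06) between shBCL9 and shGFP. 213193_x_at had means of 8.86, 6.78, 8.88 and 8.80 in the same order of groups, with a difference of -2.07 (SE 0.08). The suffixes of these probe sets mark probes that can match more than 1 transcript, and TRBC2 had no probe set of its own symbol, so signal from TRBC1 and TRBC2 cannot be told apart here. The 2 controls, shGFP and cel-miR-67, differed by at most 0.07 on any of the 3 TRBC1 probe sets.

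CD3E, which together with CD3D, CD3G and CD247 carries the receptor's signal, had a low signal that can hardly show a fall like that of TRBC1. Its probe set ranged from 5.30 to 5.98 over the 12 arrays, with means of 5.51 ± 0.01 in shGFP, 5.39 ± 0.13 in shBCL9, 5.66 ± 0.17 in cel-miR-67 and 5.77 ± 0.18 in miR-30. It was above the background level in 12 of 12 arrays, but above the 60th percentile in 0 and above the 95th percentile of the genes of other organs in 0. All 4 groups overlapped with their neighbours in order of level, and the shBCL9 minus shGFP difference was -0.12 (SE 0.10).

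CD7, a surface glycoprotein of T and NK cells and their precursors, had a low signal. 214049_x_at ranged from 4.93 to 5.24 over the arrays, above the background level in 12 of 12 and above the 60th percentile in 0. 214551_s_at ranged from 3.61 to 4.28 and was above the background level in 0 of 12. Their shBCL9 minus shGFP differences were 0.03 (SE 0.09) and 0.24 (SE 0.11), with overlapping arrays in both.

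IL23R, the subunit specific to the interleukin 23 receptor, had the widest spread of group means among the members. 1552912_a_at read 8.0, 8.09 and 7.91 in shGFP but 3.94, 3.94 and 3.19 in shBCL9. In the transfected arm it read 5.25, 5.30 and 5.51 with cel-miR-67 and 5.59, 5.42 and 5.30 with miR-30. The shGFP arrays were the high ones, at the 79.4 to 81.0 percentile of their array, and the shBCL9 arrays lay under the background level, at the 10.3 to 23.1 percentile. The difference between them was -4.31 (SE 0.16, 95% interval -4.66 to -3.96), a 19.8-fold lower signal whose size rests on a reading within background.

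The second IL23R probe set, 1561853_a_at, gave the same order of groups. It read 7.68, 7.59 and 7.57 in shGFP, 4.75, 4.48 and 4.78 in shBCL9, 5.51, 5.59 and 5.5 with cel-miR-67 and 5.64, 5.70 and 5.71 with miR-30. The shBCL9 minus shGFP difference was -2.94 (SE 0.08), and again none of the 3 shBCL9 arrays exceeded the background level. IL23R was therefore above the 60th percentile in 3 of 12 arrays on either probe set, those of shGFP. The 2 controls were unlike: shGFP exceeded cel-miR-67 by 2.65 (SE 0.16) on the first probe set and by 2.08 (SE 0.08) on the second. Infection, sorting, transfection and any handling that went with each arm cannot be told apart in that contrast.

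IL12RB1, the subunit shared by the interleukin 12 and interleukin 23 receptors, was slightly higher in shBCL9 than in shGFP on all 3 probe sets. 1552584_at read 8.09, 8.24 and 8.29 in shGFP and 8.45, 8.48 and 8.39 in shBCL9, a difference of 0.24 (SE 0.07) with no overlap. It was above every reference level in 12 of 12 arrays. Its means were 8.58 ± 0.06 with cel-miR-67 and 8.45 ± 0.03 with miR-30, so the shBCL9 mean lay within the range of the transfected arm and the shGFP arrays were the lowest. 206890_at (0.29, SE 0.10) and 239522_at (0.40, SE 0.14) were also higher in shBCL9, the latter with overlapping arrays, at mean signals of 5.59 to 6.46.

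Among the granule proteases, GZMB (granzyme B, which cleaves caspases in a target cell) was above the background level and GZMA (granzyme A) was not. GZMB exceeded that level in 12 of 12 arrays, the 60th percentile in 6 and the 95th percentile of the genes of other organs in 5. GZMB read 6.68, 6.67 and 6.75 in shGFP and 5.72, 5.22 and 5.12 in shBCL9. It read 6.26, 6.59 and 6.58 with cel-miR-67 and 5.96, 5.95 and 6.07 with miR-30. The groups did not overlap and ran from shGFP over cel-miR-67 and miR-30 to shBCL9. The shBCL9 minus shGFP difference was -1.34 (SE 0.13, 95% interval -1.63 to -1.06), a 2.54-fold lower signal, and the level reached was at the 43.1 to 53.3 percentile of the arrays. GZMA ranged from 3.53 to 4.07 over the 12 arrays, was above the background level in 0 of them, and differed by 0.16 (SE 0.11) between shBCL9 and shGFP.

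PRF1, the pore-forming perforin, gave 2 answers. 214617_at read 7.03, 6.82 and 7.23 in shGFP and 6.36, 6.33 and 6.50 in shBCL9, a difference of -0.63 (SE 0.10) without overlap. 1553681_a_at read 6.53, 6.53 and 6.60 in shGFP and 6.42, 6.64 and 6.64 in shBCL9, a difference of 0.01 (SE 0.08, 95% interval -0.15 to 0.17). The probe sets of PRF1 thus disagreed in the hairpin arm. On both, shGFP exceeded cel-miR-67, by 0.84 (SE 0.10) and 0.47 (SE 0.08).

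GNLY, the granule protein granulysin, which breaks microbial membranes, was low in all groups. 205495_s_at read 5.99, 6.07 and 6.29 in shGFP and 5.81, 5.45 and 5.78 in shBCL9, a difference of -0.44 (SE 0.13). 37145_at read 5.86, 5.58 and 5.46 in shGFP and 4.84, 4.80 and 4.93 in shBCL9, a difference of -0.78 (SE 0.09), and was above the background level in the 3 shGFP arrays and in no other. The shBCL9 level of GNLY was close to that of cel-miR-67, which had means of 5.46 ± 0.26 and 4.68 ± 0.04 on these probe sets. NKG7, a granule membrane protein of NK and cytotoxic T cells, ranged from 3.97 to 4.91 and was above the background level in 1 of 12 arrays. Its shBCL9 minus shGFP difference was -0.03 (SE 0.14).

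Over the 18 probe sets, 9 were lower in shBCL9 than in shGFP without overlap of the arrays (18.4% of all probe sets were), 2 were higher (19.9% of all) and 7 overlapped. The median difference of the members was -0.28, against 0.04 over all probe sets. Of the members, 6 were more than 2-fold lower, namely the 3 of TRBC1, the 2 of IL23R and that of GZMB, and over the whole array 458 probe sets were more than 2-fold lower and 132 more than 2-fold higher. Since this contrast put the members forward, these counts support nothing further.

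**Figure D2:**
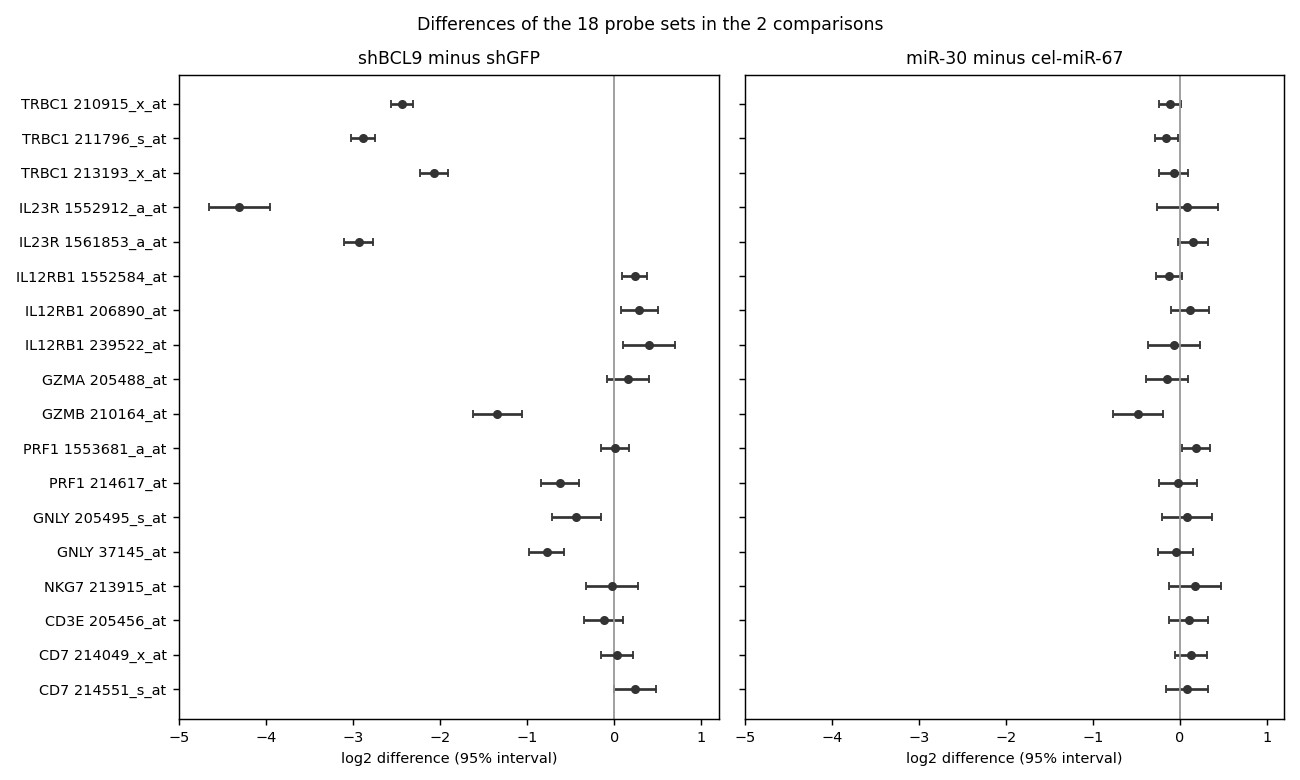
The log2 difference of each of the 18 member probe sets (point) with its 95% interval from the limma fit (bar), for shBCL9 minus shGFP on the left and miR-30 minus cel-miR-67 on the right, on the same axis. The TRBC1, IL23R and GZMB probe sets lie beyond 1 log2 unit below 0 on the left, and on the right no probe set is farther from 0 than GZMB at -0.48.

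The transfected arm asks whether miR-30 changed the same genes, and its arrays are not those of the hairpin contrast on which they were chosen. The fit took its spread from all 12 arrays, however, so the test is not fully separate from the hairpin arrays. By limma with Benjamini-Hochberg adjustment over all probe sets, 0 of the 18 member probe sets passed an adjusted p of 0.05, while 0.815% of all probe sets (445 of 54613) did. Without any 1 of the 6 transfected arrays, the 445 became 168 to 241. At an unadjusted p under 0.05 there were 3, of GZMB, TRBC1 and PRF1. Over all genes, each at its brightest probe set, 2855 of 19775 were under that unadjusted limit. Without overlap of the arrays, 4 members were lower and 2 higher with miR-30 (18.3% of all probe sets did not overlap, in either direction), and 12 overlapped. The median member difference was 0.03, against 0.00 over all probe sets.

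GZMB was nearest to a call. All 3 miR-30 arrays lay below all 3 cel-miR-67 arrays, and the difference was -0.48 (SE 0.13, 95% interval -0.77 to -0.20), a 1.4-fold lower signal, with an adjusted p of 0.124 by limma. The adjusted p ranged from 0.0252 to 0.335 over 21 other ways of fitting, and without shBCL9 replicate 1, whose GZMB value was the highest of its group, it was 0.0312. TRBC1 211796_s_at differed by -0.16 (SE 0.06, adjusted p = 0.315 by limma), far from the -2.89 of the hairpin arm. The remaining TRBC1 probe sets differed by -0.11 (SE 0.06) and -0.07 (SE 0.08), and the 95% interval of 211796_s_at ended at -0.29.

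Neither IL23R probe set passed the test with miR-30. The differences were 0.08 (SE 0.16, 95% interval -0.26 to 0.43) and 0.15 (SE 0.08, interval -0.02 to 0.32), at levels near the background. PRF1 1553681_a_at was higher by 0.18 (SE 0.08, adjusted p = 0.328 by limma) and 214617_at differed by -0.03 (SE 0.10). The other members, IL12RB1, GZMA, GNLY, NKG7, CD3E and CD7, differed by -0.15 to 0.17 with adjusted p-values of 0.476 to 0.905 in limma. A p that misses the threshold does not show that values were equal, and the intervals give what these arrays leave possible.

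The measured genes around TRBC1, IL23R and GZMB are described next. A gene near or under the background level can hardly show a fall, so such genes do not tell whether a whole stretch of chromosome moved. For example, DNAI4 was above that level in 0 of 12 arrays, CMA1 in 3, GZMH in 5 and EPHB6 in 7. Above it in 12 of 12 arrays were SLC35D1, MIER1, GADD45A and GNG12 around IL23R. So were TRPV6 and TRPV5 after TRBC1, and CTSG, STXBP6 and MIR4307HG around GZMB. Whether a stretch of chromosome moved as a whole was not tested. Before TRBC1 in the RefSeq gene order lie PRSS2, an anionic trypsinogen gene set within the T cell receptor beta locus, and the variable segments TRBV27 and TRBV16, and after it lie EPHB6, TRPV6 and TRPV5. PRSS2 rose where TRBC1 was lower: its mean was 4.79 ± 0.23 in shGFP and 7.29 ± 0.15 in shBCL9, a difference of 2.5 (SE 0.13, adjusted p = 1.44e-08 by limma). With cel-miR-67 and miR-30, PRSS2 read 5.04 ± 0.14 and 4.90 ± 0.21, so it was well above the background level in shBCL9 alone. Its probe set, 205402_x_at, has the suffix of probes that can match related transcripts, and trypsinogen genes are near-identical copies. TRBV27 and TRBV16 stayed under the background level in 12 of 12 arrays, and neither they nor the 3 genes after TRBC1 were called in shBCL9.

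**Figure D3:**
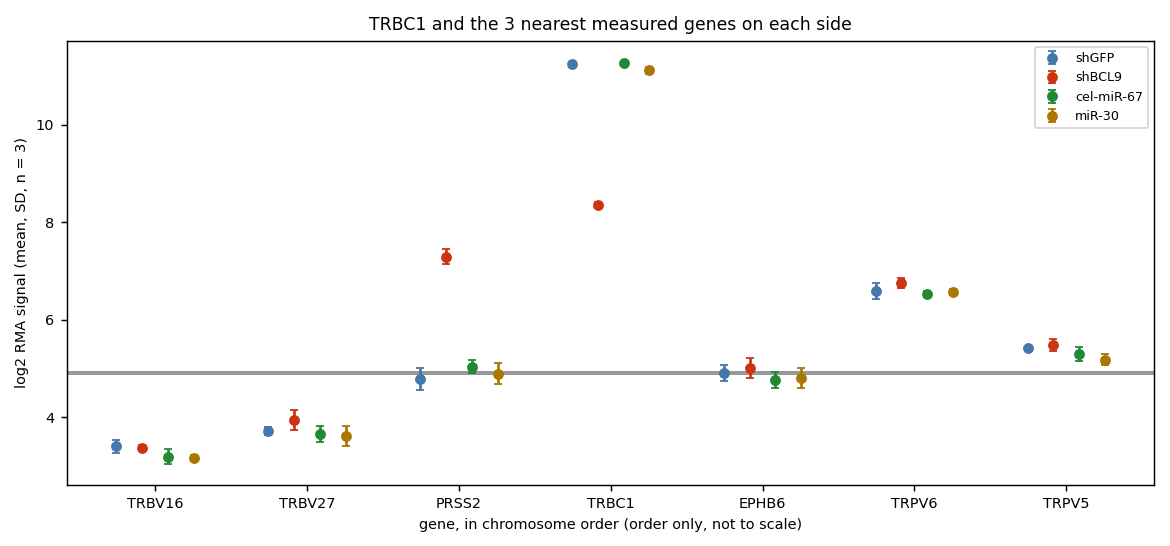
Mean log2 RMA signal with SD (n = 3) in the 4 groups, for TRBC1 (211796_s_at) and the 3 nearest measured genes on each side, in chromosome order without scale; the grey band is the 40th percentile of the arrays. In shBCL9 (red) TRBC1 falls to 8.35 while PRSS2 stands at 7.29 against 4.79 in shGFP, and the other 5 genes were not called in either comparison.

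IL23R lies between SLC35D1 and IL12RB2, the partner subunit for interleukin 12. IL12RB2 was lower in shBCL9 by -0.55 (SE 0.08, adjusted p = 3.43e-04 by limma), but at means of 3.27 to 3.81 it was under the background level in 12 of 12 arrays. SLC35D1, a nucleotide sugar transporter, differed by -0.21 (adjusted p = 0.0299) and GADD45A, a stress response gene, by 0.25 (adjusted p = 0.0245), both by limma and small beside IL23R. Both calls were lost in part of the other ways of fitting, in 9 of 23 and 8 of 23. MIER1, DNAI4 and GNG12 were not called. Beside GZMB lie other proteases of the same cluster, GZMH, CTSG and CMA1, and none was called, with differences of 0.11 to 0.12. On its other side STXBP6, a syntaxin-binding protein, fell from 7.15 ± 0.03 to 6.06 ± 0.08, a difference of -1.08 (SE 0.07, adjusted p = 7.30e-08 by limma), while NOVA1 and MIR4307HG were not called.

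The cells read as plasma cells throughout. All 10 plasma cell markers were above the background level in all 12 arrays, for example JCHAIN (14.14 in shGFP), the joining chain of secreted antibody, and TNFRSF17 (14.06), the receptor BCMA. In shBCL9, 3 of the 10 rose and 2 fell, while over all genes 11.5% rose and 15.0% fell. Those that rose were SDC1 (CD138) by 0.88 (SE 0.07, adjusted p = 7.58e-07), CD38 by 0.71 (adjusted p = 2.52e-06) and SLAMF7 by 0.60 (adjusted p = 4.91e-06), all by limma. TNFRSF17 differed by -0.18 (adjusted p = 0.0302) and PRDM1 by -0.22 (adjusted p = 0.0256), small changes that were lost in 8 of 23 and 6 of 23 other fits. Of the B cell markers 6 of 8 measured, and of the myeloid markers 2 of 9, were above the background level in all arrays.

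T and NK cell genes fell on both sides of the background level. Of the T cell genes, CD3D, CD247, CD5, CD6, CD4, CD8B, ZAP70, TBX21 and EOMES were above it in 12 of 12 arrays, with means in shGFP of 5.29 to 7.27. CD3G, CD2, CD8A, LCK, TRAT1, THEMIS, ICOS and CCR7 were above the background level in 0 of 12 arrays, as were TYROBP, CD226 and KLRF1 of NK cells and GZMK, CST7, FASLG and IFNG of cytotoxic cells. Of the 29 T cell genes measured (of 37 listed), 18 were above the background level in all arrays and 9 in none, and of the 19 NK cell genes measured (of 23) the counts were 7 and 6. Of the 24 genes of other organs measured (of 28 listed), 10 were above the background level in all arrays and 12 in none. A signal above this level is therefore no proof of expression. Over all 19775 genes, 13305 were above the background level in all arrays and 4680 in none. Among those with a high signal were CD28 (11.20 in shGFP), a costimulatory receptor, NCAM1 or CD56 (9.14), an adhesion molecule, HCST (10.10), the adaptor DAP10, and LCP2 (9.28), the adaptor SLP-76. The summed linear signal of the T cell list ran from 4130 to 4366 in the shGFP arrays, 4315 to 4450 in shBCL9, 5969 to 6281 with cel-miR-67 and 5731 to 6123 with miR-30. That of the NK cell list ran from 2133 to 2214, 2320 to 2388, 2820 to 2890 and 2812 to 2977. A few bright genes carry most of these sums, CD28 that of the T cell list and HCST and NCAM1 that of the NK cell list, so the sums say little of the other genes.

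**Figure D4:**
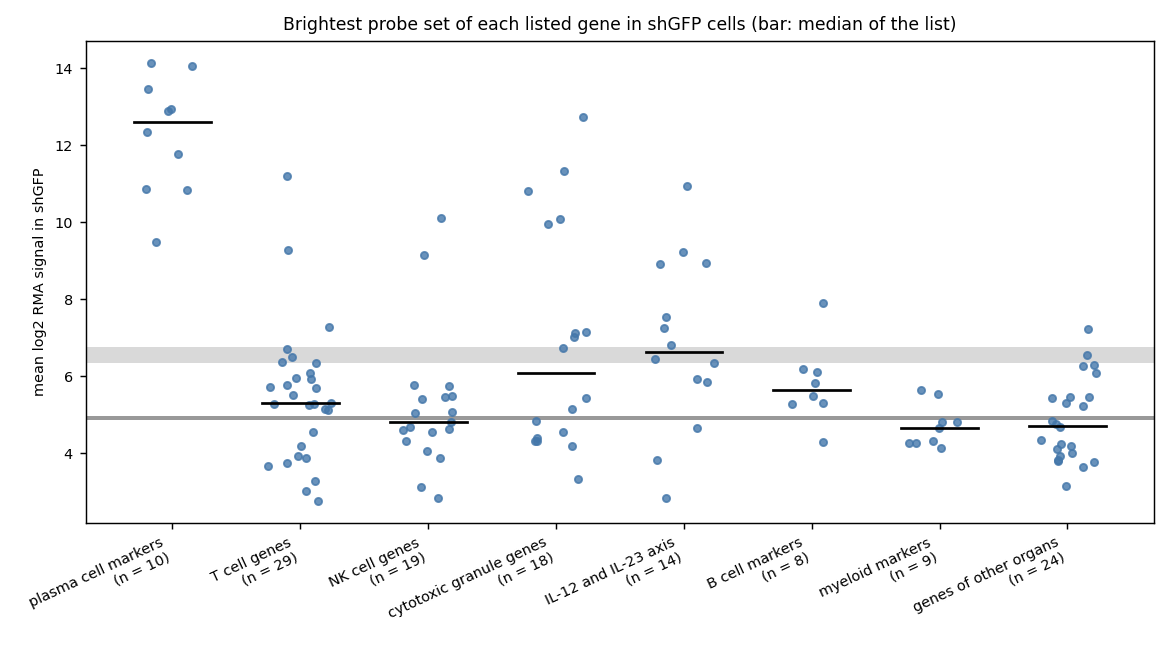
Mean log2 RMA signal in the 3 shGFP arrays of each listed gene (point, brightest probe set; horizontal spread is only for legibility), by gene list, with the median of the list as a bar; the dark band is the 40th percentile of the arrays and the pale band the 95th percentile of the genes of other organs. The 10 plasma cell markers all lie above the pale band, while most T cell, NK cell and myeloid genes lie at or under it, with CD28, NCAM1, HCST and LCP2 among the exceptions.

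In the wider T cell, NK cell, granule and interleukin 12 and 23 lists, with the members left out, genes were called in both directions in shBCL9. Of 80 genes measured (of 92 listed), 9 rose and 6 fell by limma's adjusted p under 0.05, against the same 11.5% and 15.0% of all 19775 genes. Their median difference was 0.10, against 0.04 over all genes. Of the T cell genes 2 rose and 1 fell. GATA3, a transcription factor of T helper cells, rose by 1.00 (SE 0.06, adjusted p = 5.61e-08), from 6.51 ± 0.03 to 7.5 ± 0.06, beside 7.30 ± 0.04 with cel-miR-67 and 7.38 ± 0.03 with miR-30, although on its brightest plain probe set the difference was 0.23 (adjusted p = 0.0611). IL7R, the interleukin 7 receptor, rose by 0.27 (adjusted p = 0.0420), a call lost in 14 of 22 other fits, and BCL11B, a T cell transcription factor, fell by 0.63 (SE 0.11, adjusted p = 6.07e-04) to under the background level, although the mean of its 3 probe sets differed by -0.25.

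Of the NK cell genes 2 rose and 1 fell. NCR3, an activating receptor, rose by 0.31 (adjusted p = 0.00725) near background, and NCAM1 by 0.26 (adjusted p = 0.0182), with probe sets that disagreed in sign and had a mean difference of 0.16, and a call lost in 5 of 23 other fits. KLRF1 fell by 0.34 (adjusted p = 0.0483), under the background level in every array and lost in 11 of 20 other fits. Of the 18 granule genes 3 rose and 1 fell. RAB27A, which docks granules at the membrane, rose by 0.51 (SE 0.06, adjusted p = 4.31e-05), CTSC, which activates granzymes, by 0.30 (adjusted p = 0.00606) and GZMM by 0.30 (adjusted p = 0.0363, lost in 10 of 22 other fits). The RAB27A probe sets disagreed in sign and had a mean difference of 0.21. LYST, the regulator of lysosome traffic, fell by 0.40 (adjusted p = 0.00517), but the mean of its probe sets differed by -0.04 (adjusted p = 0.70). All of these p-values are limma's.

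Of the 14 genes of the interleukin 12 and 23 axis 2 rose and 3 fell in shBCL9. STAT4, the transcription factor that interleukin 12 activates, rose by 1.00 (SE 0.06, adjusted p = 6.06e-08), from 8.95 ± 0.02 to 9.95 ± 0.07, beside 10.08 ± 0.03 with cel-miR-67 and 10.18 ± 0.04 with miR-30. EBI3, a shared cytokine subunit, rose by 0.39 (adjusted p = 0.0148, lost in 3 of 22 other fits). JAK2, the kinase bound by the specific subunits, fell by 0.52 (SE 0.08, adjusted p = 3.33e-04). IL12RB2, described above, fell, and IL12A, the p35 subunit of interleukin 12, fell by 0.46 (SE 0.10, adjusted p = 0.00416), with p-values from limma throughout. TYK2, the kinase bound by IL12RB1, and STAT3, which interleukin 23 activates, were above background and not called, with differences of -0.11 and -0.10. These were named after their values were seen. Single arrays decided some of the listed calls: EBI3 lost its call without shGFP replicate 1 or 2 (highest adjusted p = 0.055), NCAM1 without shGFP replicate 1 or shBCL9 replicate 1 or 2 (0.0702), and GZMM without shGFP replicate 1 or 3 or shBCL9 replicate 1 or 3 (0.14 over all fits). KLRF1 lost it without any 1 of the 6 hairpin arrays, and IL7R without any of these except shBCL9 replicate 1, with highest adjusted p-values of 0.192 and 0.166 in limma; both also lost it without some of the transfected arrays.

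**Figure D5:**
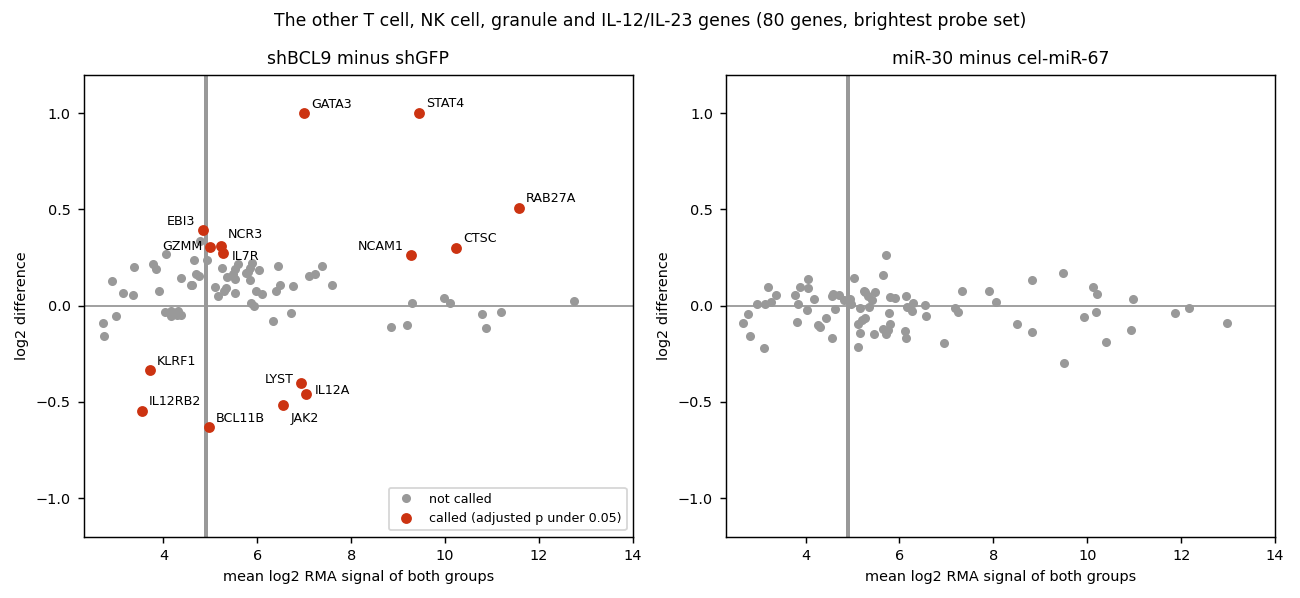
The log2 difference (vertical axis) against the mean log2 RMA signal of both groups (horizontal axis) for the 80 listed genes that are no members, one point per gene at its brightest probe set, for shBCL9 minus shGFP on the left and miR-30 minus cel-miR-67 on the right; red points were called by limma and the grey band is the 40th percentile of the arrays. On the left 9 red points lie above 0 and 6 below it, and on the right there are none.

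With miR-30, 5 of the 80 listed genes had an unadjusted p under 0.05 by limma, against 2855 of all 19775 genes. After adjustment 0 of the 80 were called, and 1.17% of all genes. STAT3 was nearest, with a difference of -0.30 (SE 0.07, adjusted p = 0.063 by limma), and was named after its value was seen. Without shGFP replicate 3, 1 listed gene was called. The median of the lists was -0.01, as over all genes.

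In the last comparison, the genes whose signal over the 12 arrays was most like that of a member were looked up among 14717 genes, as a description in which the arrays of a group share their treatment. For TRBC1 they were DNAJC12 (Pearson r = 0.995), S100A4 (0.994), TMT1A (0.994), FCRL5 (0.993) and NAP1L5 (0.992). FCRL5, a receptor of B cells and plasma cells, had means of 9.06 in shGFP, 7.02 in shBCL9, 9.01 with cel-miR-67 and 8.89 with miR-30, so shBCL9 alone was low, as for TRBC1. For IL23R they were IL16 (0.987), PAGE1 (0.986), GALNT11 (0.984), MAP9 (0.984) and CLIP4 (0.983). IL16, a chemoattractant cytokine for CD4+ cells, read 8.81, 6.62, 7.46 and 7.36 in the same order of groups, high in shGFP and low in shBCL9 with the transfected arm between. For GZMB they were ZNF35 (0.968), ATOX1 (0.953), NECAB3 (0.949), TRMT13 (0.945) and CANT1 (0.945), of which ATOX1, a copper chaperone, read 11.46, 11.04, 11.38 and 11.21.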

How the data were processed

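Trizol extracts of H929 RNA were biotin-labelled by 3′ in vitro transcription for 12 arrays, per the labels' protocols. The deposited values are log2 signals made by the authors with RMA and affy, per the submitters' processing notes (versions not given in the sources used here), and were used without further normalization. The precision is limited by the number of arrays, which carry no depth. In any pair of arrays 17 to 90 values were equal, so no array was a copy.

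Probe sets were named from the platform annotation: 41097 had 1 symbol, 1801 several and 11777 were not listed. Gene IDs of 41043 matched the RefSeq gene table (GRCh38.p14), which changed 0 symbols. A listed gene was read at its brightest probe set over the 12 arrays. A mean per group was fitted to 54613 probe sets on all 12 arrays with limma 3.58.1 in R 4.3.3 (lmFit, eBayes), with Benjamini-Hochberg adjustment over all of them and a threshold of 0.05, after testing on simulated data. Adjusted p-values in the text are limma's. No member was tested in shBCL9 minus shGFP, nor in shGFP minus cel-miR-67, which shares the shGFP arrays.

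Members and lists were chosen with earlier results of these data known. Named were all member probe sets, up to 4 called genes per list and comparison, the 5 genes most correlated with the brightest probe set of TRBC1, IL23R and GZMB, up to 3 measured neighbours on each side of these, and plasma cell markers by level. The alternatives were filters at the 40th and 60th percentile, further quantile normalization, median centring, only the arrays of an arm, trend and robust estimation, array weights, a replicate block, a threshold of 0.01, averaged or plain probe sets per gene, and leaving out each array. Plots used matplotlib 3.10.9 under Python 3.11.15.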

Additional observations from a re-analysis of the deposited data

Results flagged for a closer look

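The effect of miR-30 against cel-miR-67 was compared with that of shBCL9 against shGFP as an interaction in limma, adjusted over all probe sets. Of the 28 named genes called in shBCL9, 13 differed between the arms. The sign is the miR-30 effect minus the shBCL9 effect. The difference was -2.64 for PRSS2 (adjusted p = 6.94e-07), -0.99 for CD38 (7.37e-06), -0.92 for GATA3 (9.40e-06), -0.90 for STAT4 (1.23e-05), -0.84 for SDC1 (7.51e-05), -0.63 for SLAMF7 (1.73e-04), -0.56 for EBI3 (0.0239), -0.52 for RAB27A (0.00137) and -0.41 for INS (0.0234), which is insulin, a gene of the panel of other organs that stayed under the background level. The difference was 0.89 for STXBP6 (3.28e-05), 0.60 for IL12RB2 (0.00463), 0.59 for JAK2 (0.00346) and 0.42 for LYST (0.0472). Over all 19775 genes, 2758 (13.9%) differed between the arms. Among the 5245 genes called in shBCL9, the share to set beside the named genes, 2466 did. The genes compared here were those called in shBCL9, a contrast that the interaction shares, so their differences largely follow from that choice and support nothing further. Of all probe sets, 18.4% were lower and 19.9% higher without overlap in the hairpin arm, and 18.3% did not overlap in the transfected arm. The share that did so in opposite directions in the arms was not counted, and the shares of single arms do not give it. Whether the members named next are unusual in this can thus not be told. Among the members, IL23R 1561853_a_at and IL12RB1 1552584_at did so, with differences of effects of 3.09 and -0.36. Their miR-30 differences were 0.15 and -0.13, with adjusted p-values of 0.479 and 0.476 by limma. For these members the difference was not tested, because the hairpin contrast put them forward.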

How the results depend on the processing

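Under the alternatives the shBCL9 minus shGFP differences of the TRBC1, IL23R and GZMB probe sets kept their sign, with ranges of -2.92 to -2.02 for TRBC1, -4.43 to -2.84 for IL23R and -1.53 to -1.23 for GZMB; the sign turned in 10 of 349 values over all members. The member median was -0.35 to -0.20 when an array was left out. It was -0.63 with the filter at the 40th percentile and -1.71 with that at the 60th, where fewer probe sets remained. These filters kept probe sets above the limit in at least 3 arrays. Both IL23R probe sets passed the 60th percentile, and GNLY 37145_at the 40th, only through the 3 shGFP arrays. The lower medians are therefore partly built in by the filter. The number of member probe sets called with miR-30 was 1 with the filter at the 60th percentile and 1 with trend and robust estimation (GZMB), and 0 to 1 when an array was left out. The number above the background level in all arrays was 4 at the 60th percentile and 3 at the 95th percentile of the other organs. Of the listed genes, those lower in shBCL9 were 3 with the filter at the 60th percentile, and those higher were 5 at a threshold of 0.01 and 17 with the mean of the probe sets. Listed genes lower with miR-30 were 1 with either filter, 1 with trend and robust estimation, 1 with array weights, and 0 to 1 when an array was left out. Probe sets called with miR-30 over the whole array were 917 and 1516 with the filters, 148 with only the arrays of that arm, 1744 with trend and robust estimation and 134 at 0.01, against 168 to 429 when an array was left out. At 0.01, 7363 probe sets were called in shBCL9, and 12560 at 0.05. With the replicate number as a block, 1 probe set was called with miR-30 and 9531 in shBCL9. Same-numbered arrays correlated at 0.034, 0.068 and 0.049 in the hairpin arm and at 0.113, 0.043 and 0.190 in the transfected arm. Arrays of different number correlated at -0.093 to 0.033 in the hairpin arm and at -0.198 to 0.088 in the transfected arm. In the transfected arm miR-30 replicate 2 correlated better with cel-miR-67 replicate 1 (0.088) than with its own number. Every other array correlated best with the same-numbered array of the other group in its arm. Whether the numbers mark pairs of arrays was not tested. Of 626 values of named genes in shBCL9 minus shGFP, 532 kept their call and 94 lost it, with the same direction. Signals near the background level limit what GZMA, NKG7, CD7, GNLY and CD3E can show.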

Other observations

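In the panel of genes of other organs, 3 of 24 genes were higher in shBCL9 than in shGFP by limma and 0 were lower, while 11.5% of all genes were higher and 15.0% lower. These were SFTPB (0.42, adjusted p = 0.0029), a lung surfactant protein, INS (0.34, adjusted p = 0.00522) and TG (0.31, adjusted p = 0.0349), the thyroid hormone precursor. SFTPB was above the background level in 12 of 12 arrays, TG in 8 and INS in 0. The SFTPB call was lost with plain probe sets only (0.09, adjusted p = 0.436) and that of TG in 9 of 22 other fits. The summed linear signal of the panel was 903 to 942 in shGFP and 1013 to 1057 in shBCL9. CD22, a B cell receptor of sialic acids, was the only one of 8 measured B cell markers called in shBCL9, higher by 0.25 (adjusted p = 0.0269 by limma), a call lost in 7 of 23 other fits. None of the 9 measured myeloid markers was called there.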
